A study of Mus musculus with 8 samples.

Results

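Genes of iron oxidation, storage and transport were followed in sorted tumor stroma: the ferroxidases Heph and Cp, the metalloreductases Steap3 and Steap4, the importers Tfrc and Slc11a2, the exporter Slc40a1, the ferritin chains Fth1 and Ftl1, and the heme oxygenase Hmox1. They are 10 of the 53801 genes in the count table. Each symbol had a row, and all 10 genes were tested. The set was selected on the measured difference between GFP+ and GFP- libraries, with fold changes of this same comparison known, so the values of its members are a description of these libraries. Libraries came from MO5 melanomas, grown by subcutaneous injection of B16 cells that carry ovalbumin. The hosts were ADAM12-GFP mice on the C57BL/6 background, in which a bacterial artificial chromosome places Cre and GFP under control of Adam12 sequence. Both groups were live CD45-CD31- cells gated as PDPN+ PDGFRα+ stroma, and they differ in the GFP reporter, with 4 GFP+ and 4 GFP- libraries. Per the study's methods, the hosts were young adults and replicates are mice unless stated otherwise. The labels do not link single libraries to mice, so p-values set group differences against the spread between these libraries only.

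Iron crosses membranes as Fe2+ and is carried by transferrin as Fe3+, so import and export are coupled to reduction and oxidation. Transferrin receptor (Tfrc) brings transferrin-bound iron into endosomes, where STEAP proteins reduce it and the divalent metal transporter (Slc11a2) moves it to the cytosol. Iron that is not used is stored in ferritin, a shell of heavy (Fth1) and light (Ftl1) chains, or leaves through ferroportin (Slc40a1) and is oxidized by hephaestin (Heph) or ceruloplasmin (Cp). Heme oxygenase (Hmox1) releases iron from heme. The iron regulatory proteins bind a hairpin in messenger RNA, the iron-responsive element: when iron is low, binding in a 5′ UTR blocks translation and binding in the 3′ UTR of Tfrc protects the transcript.

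Hairpins of this canonical form in the 10 transcripts are shown because iron regulatory proteins bind them, and all are placed on the GRCm38 assembly with GENCODE M21 gene models. The search looked for a C, then 5 bases, then the 6-base loop CAGTG followed by A, C or T, then 5 bases that pair with the first 5 (G-T pairs allowed), on the transcribed strand of annotated UTRs. Capitals mark the unpaired C and the loop. Each site is exonic, and positions are 1-based. The Fth1 site is at chr19:9982733-9982759 (plus strand, 5′ UTR), the Ftl1 site at chr7:45459780-45459806 (minus strand, 5′ UTR) and the Slc40a1 site at chr1:45925466-45925492 (minus strand, 5′ UTR). The 4 Tfrc sites, all in the 3′ UTR on the plus strand, are at chr16:32631220-32631246, chr16:32631599-32631625, chr16:32631664-32631690 and chr16:32631711-32631737.
Fth1: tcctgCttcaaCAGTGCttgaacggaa
Ftl1: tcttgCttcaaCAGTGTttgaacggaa
Slc40a1: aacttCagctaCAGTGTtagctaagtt
Tfrc, site 1: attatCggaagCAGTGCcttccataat
Tfrc, site 2: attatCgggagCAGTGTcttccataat
Tfrc, site 3: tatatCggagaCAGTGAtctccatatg
Tfrc, site 4: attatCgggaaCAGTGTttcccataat
Heph, Cp, Steap3, Steap4, Slc11a2 and Hmox1 held no such match in the annotated UTRs, which says only that these letters were not found there. The search cannot find hairpins with a further bulge, such as the iron-responsive element known in the 3′ UTR of Slc11a2. Over all genes with an annotated 5′ UTR, 23 of 20916 (0.11%) held a match, and with a 3′ UTR 100 of 21039 (0.475%). A match is a description of sequence and was not used to select the genes.

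Reads assigned to genes ran from 883144 in GFP- replicate 3 to 31666734 in GFP+ replicate 4, with 7868787 or more in each library other than GFP- replicate 3. Values below are normalised read counts, meaning raw counts scaled to a common depth by size factors from DESeq2, and a log2 fold change is positive where GFP+ was higher. Adam12, the gene behind the reporter, was at 1362 ± 357 in GFP- and 2302 ± 484 in GFP+ libraries (SD, n = 4 each), with DESeq2 adjusted p = 0.0266, so GFP- cells were not free of its transcript. It was no longer called without GFP- replicate 3 or 4 or GFP+ replicate 2 or 4 (adjusted p from 0.0689 to 0.117) or by edgeR (adjusted p = 0.0643). The labelled stroma was present in both groups, with Pdgfra called higher in GFP+ at log2 1.32. Of 10 fibroblast markers 7 were called higher in GFP+, beside 4.66% over all tested genes. This count was 5 to 7 when 1 library was left out and 6 by edgeR. Col3a1 lost its call without GFP- replicate 3 or GFP+ replicate 1, 2 or 3 (adjusted p from 0.06725 to 0.0895) and by edgeR (adjusted p = 0.09015). Pdpn lost its call without GFP- replicate 1 or 4 or GFP+ replicate 3 (adjusted p from 0.0563 to 0.0799). Ptprc, which encodes CD45, was not at 0 in any library and was highest in GFP- replicate 3 (1703) and GFP+ replicate 2 (1383).

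The 12 melanocyte markers, which tumor cells express, were all called lower in GFP+ by DESeq2, beside 4.76% over all tested genes. The count was 9 to 12 when 1 library was left out and 11 by edgeR. Gpr143 lost its call without GFP- replicate 4 (adjusted p = 0.170) and by edgeR (adjusted p = 0.0966). Oca2 lost its call without GFP- replicate 1, 2, 3 or 4 or GFP+ replicate 3 or 4 (adjusted p from 0.051 to 0.197). Trpm1 lost its call without GFP- replicate 1, 2 or 4 or GFP+ replicate 2 or 3 (adjusted p from 0.0661 to 0.158). The summed share of reads on the 12 markers ran from 0.276% to 0.841% in GFP- and from 0.0374% to 0.116% in GFP+ libraries. Only Gpr143 in GFP+ replicate 1 was at 0. The difference gave a 2-sided exact permutation p = 0.0286, the smallest that 70 splits of 4 against 4 allow, and 0.114 after adjustment over 8 marker lists. The fibroblast share ran from 2.78% to 5.41% in GFP- and from 6.32% to 6.40% in GFP+ libraries, with the same exact p = 0.0286 and adjusted value. In bulk RNA, fewer cells of a type and less RNA per cell cannot be told apart. The part of either share in the results below was not tested beyond the values given.

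Among the 10 iron genes, 4 were called higher in GFP+ (Heph, Steap4, Cp and Fth1), 1 was called lower (Tfrc) and 5 were not called, at a DESeq2 adjusted p under 0.05. Over the 15283 tested genes, 712 (4.66%) were called higher and 727 (4.76%) lower. The same 5 iron genes were those whose groups did not overlap, a state found in 12.3% of tested genes. The median log2 fold change was 0.37 over the 10 genes, with 9 of 10 above 0, and -0.01 over all tested genes. Since this comparison was used in choosing the genes, nothing is read from these shares. On either side of the threshold, Fth1 had the largest adjusted p of the called genes and Slc11a2 the smallest of the others.

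**Figure D1:**
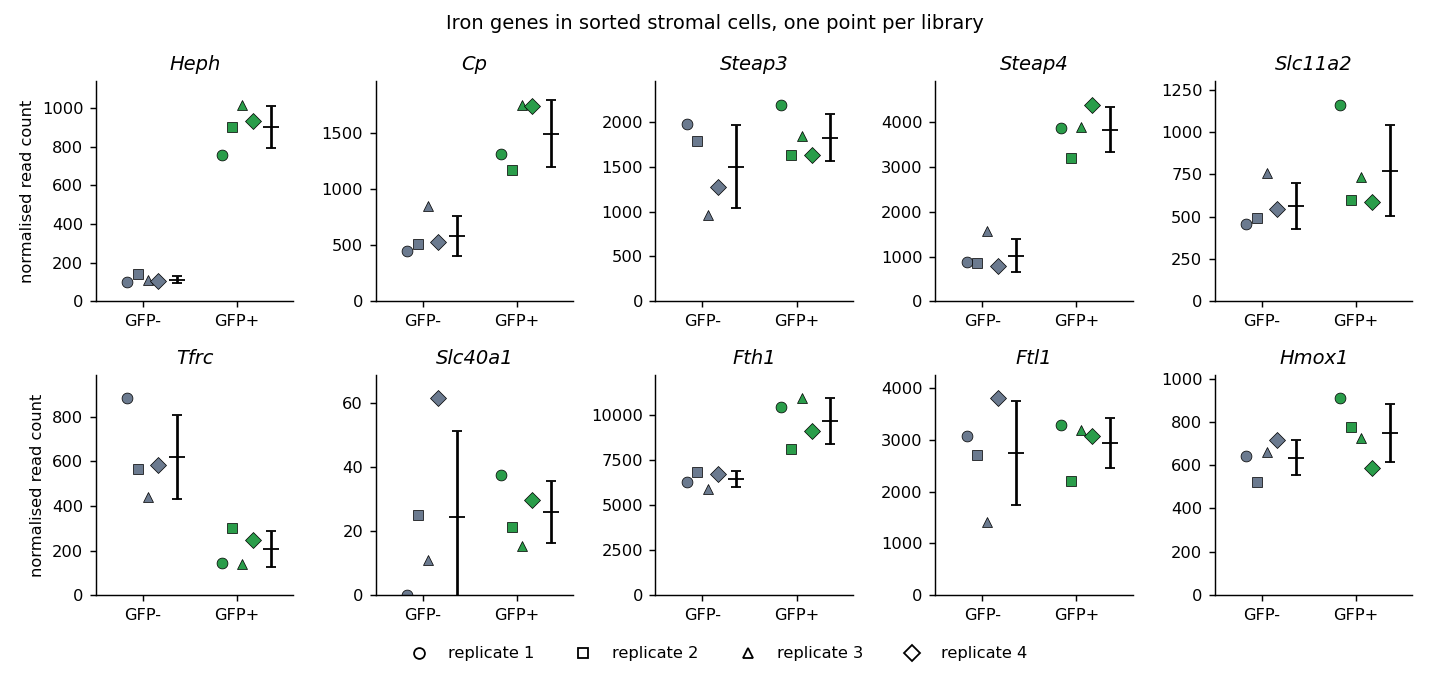
Normalised read count of each iron gene (y axis, starting at 0, one scale per panel) in the 4 GFP- (grey) and 4 GFP+ (green) libraries. Symbols give the replicate number, and the bar beside each group is the mean ± SD over 4 libraries, clipped at 0 for Slc40a1; Heph, Cp, Steap4 and Fth1 were higher in every GFP+ library and Tfrc was lower.

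Heph encodes hephaestin, a membrane-bound copper ferroxidase that oxidizes iron leaving the cell. It spans chrX:96455359-96574485 on the plus strand. Heph was at 97.7, 139.7, 109.9 and 103.5 in GFP- replicates 1 to 4, and at 756.8, 900.8, 1016 and 931.7 in GFP+ replicates 1 to 4. All GFP+ libraries were several-fold above all GFP- libraries, and each group was tight. The difference was 7.94-fold, a log2 fold change of 2.99 ± 0.22 (SE; DESeq2 adjusted p = 2.18e-38), and it stayed between 2.91 and 3.14 when any 1 library was left out. The GFP- replicate 3 value rests on 10 reads, and those of the other GFP- libraries on 72 to 197. Hsf3 overlaps Heph exons on the opposite strand and held 25 reads in all libraries, against 7272 for Heph.

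Cp encodes ceruloplasmin, the secreted or membrane-anchored copper ferroxidase related to hephaestin. Cp (chr3:19957054-20009145, plus strand) was at 446.3, 513.1, 846.0 and 524.2 in GFP- replicates 1 to 4 and at 1310, 1170, 1752 and 1737 in GFP+ replicates 1 to 4. The GFP- library with most Cp, replicate 3, was still below the lowest GFP+ library. The log2 fold change was 1.40 ± 0.24 (2.64-fold, DESeq2 adjusted p = 7.67e-07). Hps3 lies on the opposite strand with overlapping exons and held 3431 reads, against 13316 for Cp. Counting used the strand, and gene counts do not separate the secreted from the anchored form of Cp.

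Set side by side per length of exon, the ferroxidases came closer in level in GFP+ libraries. Exon length is the union of all annotated exons of a gene, so ratios between genes depend on the annotation. Cp per kilobase was 4.21 ± 1.39 times Heph in GFP- libraries (range 2.94 to 6.17) and 1.33 ± 0.20 times in GFP+ libraries (range 1.04 to 1.49). The summed level of Heph and Cp was 75.6 ± 18.9 normalised counts per kilobase in GFP- and 274 ± 41.8 in GFP+ libraries, with no overlap. Cp was the more abundant transcript in each library, while Heph had the larger fold change.

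Steap4 encodes a metalloreductase of iron and copper that is induced by inflammatory signals in adipose tissue. Steap4 (chr5:7960457-7982213, plus strand) was at 883.2, 860.7, 1560 and 782.6 in GFP- replicates 1 to 4 and at 3869, 3193, 3896 and 4395 in GFP+ replicates 1 to 4. Again GFP- replicate 3 was the highest of its group and lay well under every GFP+ library. The log2 fold change was 1.94 ± 0.23 (3.84-fold, DESeq2 adjusted p = 1.41e-13).

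Steap3, the endosomal ferrireductase of the transferrin cycle in red cell precursors (chr1:120190757-120272705, minus strand), was at 1977, 1787, 966.9 and 1277 in GFP- and at 2194, 1636, 1839 and 1631 in GFP+ replicates 1 to 4. The groups overlapped, and the 95% interval of the log2 fold change ran from -0.20 to 0.74 (DESeq2 adjusted p = 0.584). Per kilobase, Steap4 was 1.43 ± 1.00 times Steap3 in GFP- libraries and 3.86 ± 0.73 times in GFP+ libraries. The GFP- mean of this ratio was drawn up by replicate 3, at 2.92, while the other GFP- libraries lay between 0.809 and 1.11.

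Tfrc encodes transferrin receptor 1, the main route of iron into dividing cells. Tfrc (chr16:32608920-32632794, plus strand) was at 881.8, 566.9, 439.5 and 585.1 in GFP- replicates 1 to 4 and at 144.4, 302.5, 137.5 and 248.3 in GFP+ replicates 1 to 4. Every GFP+ library was below every GFP- library, and the level varied more within each group than that of Heph. Tfrc fell by 1.58 ± 0.33 on the log2 scale, a level 2.98-fold lower in GFP+ (DESeq2 adjusted p = 8.71e-05). The fold change stayed between -1.81 and -1.36 without any 1 library.

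Tfrc was set beside the melanocyte share inside each group. GFP- replicate 3 had the lowest melanocyte share of its group (0.276%) and the lowest Tfrc, and among GFP+ libraries replicates 2 and 4 had the highest shares (0.075% and 0.116%) and the highest Tfrc. The orders were not the same in either group. Within GFP-, replicate 1 had the highest Tfrc beside a share of 0.502%, and replicate 4 had the highest share. Within GFP+, replicate 4 had the highest share but replicate 2 the highest Tfrc, and replicate 1 had the lowest share but more Tfrc than replicate 3. Of 8 cell-cycle genes, 1 (Birc5) was called lower in GFP+ and none higher, beside 4.76% called lower over all tested genes. The Birc5 call (DESeq2 adjusted p = 0.0212) was lost by edgeR (adjusted p = 0.118) and without GFP- replicate 2 or 4 or GFP+ replicate 4 (adjusted p from 0.0954 to 0.134). The summed share of the cell-cycle genes was 0.0544% ± 0.0213 in GFP- and 0.0371% ± 0.00502 in GFP+ libraries (2-sided exact permutation p = 0.257). Without the shallow GFP- replicate 3 the difference was -0.0258 percentage points (exact permutation p = 0.0286). It was -0.0115 or -0.0114 percentage points without GFP- replicate 1 or 2 (exact permutation p = 0.457 for each). These p-values were not adjusted over the marker lists. The part of the melanocyte and cell-cycle transcripts in the Tfrc difference was not tested.

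**Figure D2:**
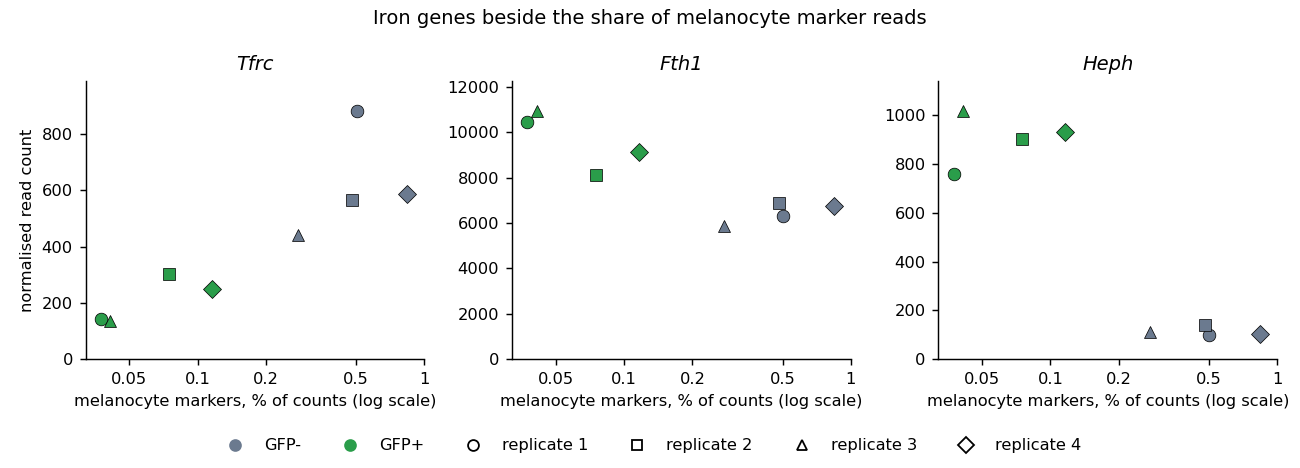
Normalised read counts of Tfrc, Fth1 and Heph (y axis, from 0) against the share of reads on 12 melanocyte markers (x axis, percent, log scale) in the 8 libraries, grey for GFP- and green for GFP+, with symbols for the replicate number. GFP- libraries sit at 0.276% to 0.841% and GFP+ libraries at 0.0374% to 0.116%, so the groups are separate on the x axis in every panel.

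Slc11a2 encodes the divalent metal transporter DMT1, which takes iron out of endosomes. Slc11a2 (chr15:100387898-100425072, minus strand) was at 457.2, 491.6, 758.1 and 542.6 in GFP- and at 1161, 597.4, 733.7 and 588.5 in GFP+ replicates 1 to 4. GFP+ replicate 1 was the highest library and the other GFP+ libraries lay within or near the GFP- range. Its log2 fold change was 0.48, with a 95% interval from -0.07 to 1.02 (DESeq2 adjusted p = 0.328). With each library left out in turn it lay between 0.24 and 0.62, and it was not called in any of these fits. Per kilobase, Slc11a2 was 0.983 ± 0.496 times Tfrc in GFP- and 4.31 ± 2.76 times in GFP+ libraries, and these ranges (0.505 to 1.68 and 1.92 to 7.82) did not overlap.

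Slc40a1, which encodes ferroportin, the cell's only known iron exporter, had the lowest level of the 10 (chr1:45908068-45926523, minus strand). It was at 0, 25.1, 11 and 61.5 in GFP- and at 37.5, 21.3, 15.4 and 29.9 in GFP+ replicates 1 to 4, from 0, 35, 1 and 117 raw reads and 27, 51, 20 and 89 raw reads. A count of 0 in GFP- replicate 1 allows up to 3 reads, or 4.07 normalised counts, which covers counting error only. The groups overlapped, and the log2 interval from -1.95 to 1.98 covers changes of a large size in both directions (DESeq2 adjusted p = 0.996). No difference in ferroportin transcript was detected. The exporter was measured on few reads in both groups, with a wide spread between GFP- libraries.

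Fth1, the ferritin heavy chain, carries ferritin's own ferroxidase centre. Fth1 (chr19:9980598-9985098, plus strand) was at 6298, 6868, 5878 and 6730 in GFP- and at 10459, 8116, 10934 and 9145 in GFP+ replicates 1 to 4. The GFP- libraries were tight and all below the lowest GFP+ library, replicate 2. The log2 fold change was 0.58 ± 0.15 (DESeq2 adjusted p = 0.00201), the smallest of the 5 called, and without any 1 library the adjusted p reached at most 0.0273.

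Ftl1, the light chain that helps form the iron core (chr7:45457944-45459884, minus strand), was at 3073, 2711, 1406 and 3807 in GFP- and at 3286, 2218, 3187 and 3073 in GFP+ replicates 1 to 4. The groups overlapped, with the shallow GFP- replicate 3 lowest, on 128 reads. The log2 fold change was 0.09, with an interval from -0.46 to 0.63 (DESeq2 adjusted p = 0.917), and turned to -0.13 without GFP- replicate 3. Both chains together took 0.0929% ± 0.0164 of reads in GFP- and 0.113% ± 0.0105 in GFP+ libraries, ranges that overlapped. Rows for 14 other ferritin copies held 28 reads in all, against 130394 for Fth1 and Ftl1, and reads that match several copies equally well may have been lost.

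The ratio of storage to uptake transcripts joined the opposite changes. Fth1 per kilobase was 19.7 ± 4.83 times Tfrc in GFP- libraries (12.7, 21.6, 23.9 and 20.5 in replicates 1 to 4) and 96.1 ± 46.3 times in GFP+ libraries (129, 47.8, 142 and 65.7). The lowest GFP+ ratio, in replicate 2, was above the highest GFP- ratio. Within GFP+, replicates 2 and 4 had more melanocyte reads and the lower ratios. Within GFP-, the highest melanocyte share, in replicate 4, stood beside a ratio of 20.5, and the lowest ratio was in replicate 1. By contrast, Fth1 relative to Ftl1 per kilobase overlapped between groups, at 1.02 ± 0.42 and 1.28 ± 0.12.

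Hmox1 encodes heme oxygenase 1, the stress-inducible enzyme that opens the heme ring. Hmox1 (chr8:75093621-75100589, plus strand) was at 643.1, 521.7, 659.2 and 714.9 in GFP- and at 908.2, 777.8, 724.4 and 586.8 in GFP+ replicates 1 to 4. GFP+ replicates 1 to 3 lay above all GFP- libraries and replicate 4 lay among them. On the log2 scale the difference was 0.24, with an interval from -0.16 to 0.64 (DESeq2 adjusted p = 0.558).

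**Figure D3:**
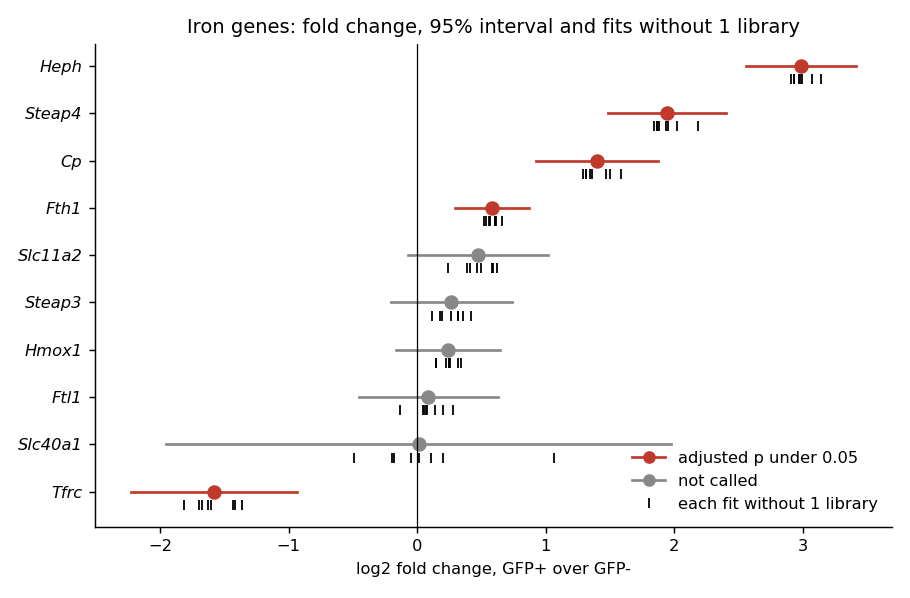
Log2 fold change of each iron gene, GFP+ over GFP- (x axis), with its 95% interval (line), in red where the DESeq2 adjusted p was under 0.05. Black ticks under each line are the 8 fits that leave out 1 library, which stay on one side of 0 for the 5 called genes and lie on both sides for Ftl1 and Slc40a1.

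Levels between genes were compared as normalised counts per kilobase of exon, with the union of all annotated exons as the length. This length was 3.469 kb for Fth1 and 1.34 kb for Ftl1, and the order depends on it. Before division by length, the GFP- means were 6444 for Fth1 and 2749 for Ftl1. In GFP+ libraries the order was Fth1 (2786 ± 369), Ftl1 (2195 ± 366), Steap4 (1217 ± 156), Hmox1 (428 ± 76.0), Steap3 (319 ± 46.2), Cp (156 ± 31.0), Slc11a2 (121 ± 42.3), Heph (118 ± 14.1), Tfrc (33.7 ± 13.1) and Slc40a1 (2.89 ± 1.08). The ranges of neighbours overlapped for Fth1 and Ftl1, for Hmox1 and Steap3, for Cp and Slc11a2, and for Slc11a2 and Heph, and the other neighbours were apart. In GFP- libraries the order was Ftl1 (2052 ± 750), Fth1 (1858 ± 129), Hmox1 (362 ± 46.5), Steap4 (324 ± 115), Steap3 (263 ± 81.0), Tfrc (99.97 ± 30.3), Slc11a2 (88.5 ± 21.3), Cp (60.9 ± 18.7), Heph (14.7 ± 2.44) and Slc40a1 (2.71 ± 2.97). There, neighbours were apart only between Fth1 and Hmox1, Steap3 and Tfrc, Cp and Heph, and Heph and Slc40a1. Over all 8 libraries the per-kilobase level of Fth1 exceeded that of 99.2% of tested genes, that of Steap4 97.4%, that of Heph 64.8% and that of Slc40a1 6.0%.

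**Figure D4:**
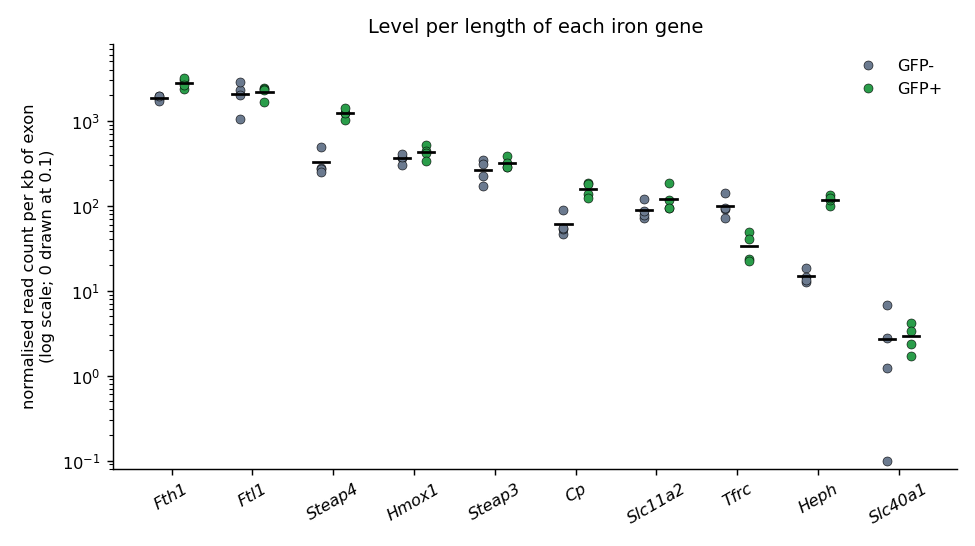
Normalised read count per kilobase of exon (y axis, log scale, a value of 0 drawn at 0.1) for each iron gene, ordered by its mean over 8 libraries. Points are libraries (grey GFP-, green GFP+) and black bars are group means; the order of Heph and Tfrc is the opposite in the 2 groups, at 14.7 and 99.97 in GFP- and 118 and 33.7 in GFP+ libraries.

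The profile of Heph across the 8 libraries was then compared with that of each of 8811 other genes whose normalised counts averaged at least 100, as the root mean square difference of centred log2(normalised count + 1). The 5 closest genes were Aoc3 (0.403), Gucy1a1 (0.446), Cxcl14 (0.490), Jam2 (0.517) and Mmp3 (0.575). Aoc3 encodes a membrane amine oxidase, Gucy1a1 a subunit of soluble guanylate cyclase, Cxcl14 a chemokine, Jam2 a junctional adhesion molecule and Mmp3 stromelysin. Their log2 fold changes were 2.37, 2.68, 3.32, 2.17 and 1.95. These genes were chosen for the same pattern, so the values are not a test. Among the iron genes, Steap4 ranked 11 (0.625) and Cp 78 (0.864), while Tfrc ranked 8519.

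The wider iron list held 71 further genes, chosen with earlier results of these data known. Of these, 60 were tested, 5 were called higher (Lcn2, Hp, Epas1, Lrp1 and App), 2 were called lower (Slc48a1 and Glrx5), and 53 were not called. The median log2 fold change was 0.15 with 33 of 60 above 0. The called counts stand beside 4.66% called higher and 4.76% called lower among all tested genes. For 11 of these 60 genes the GFP+ and GFP- ranges were apart (9 above and 2 below), beside 12.3% of all tested genes. The other 11 genes had no adjusted p, 4 of them with no read at all.

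Among uptake genes, 2 of 14 tested were called higher and none lower, beside 4.66% and 4.76% over all tested genes. Lcn2 encodes lipocalin 2, which binds siderophores that carry iron. It was at 0, 8.60, 11 and 12.1 in GFP- and at 102.8, 138.5, 96.0 and 97.6 in GFP+ replicates 1 to 4. All GFP+ libraries were far above the GFP- libraries, which rest on 0, 12, 1 and 23 reads, with a log2 fold change of 3.82 ± 0.61 (DESeq2 adjusted p = 4.33e-08). The count of 0 allows up to 4.07 normalised counts. Lrp1, a large endocytic receptor that takes up hemopexin-bound heme among many ligands, was at 31327 ± 4174 in GFP- and 56847 ± 9521 in GFP+ libraries (SD, n = 4 each; log2 0.86 ± 0.18, DESeq2 adjusted p = 5.04e-05).

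Among genes of heme transport and breakdown, 1 of 10 tested was called higher and 1 lower, beside 4.66% and 4.76% over all tested genes. Hp, or haptoglobin, which captures free hemoglobin, was at 0, 25.1, 87.9 and 14.7 in GFP- and at 223.6, 88.7, 140.6 and 113.1 in GFP+ replicates 1 to 4. The groups were apart by less than 1 normalised count, between GFP- replicate 3 and GFP+ replicate 2. Its log2 fold change was 2.43 ± 0.83 (DESeq2 adjusted p = 0.0396), and 3.36 without GFP- replicate 3. The call was lost without any library other than GFP- replicate 1 or 3, at adjusted p from 0.0621 to 0.165, and also by edgeR (adjusted p = 0.156) and without independent filtering (adjusted p = 0.0743). Hpx, the heme carrier hemopexin, rested on 0, 0, 0 and 7 raw reads in GFP- and on 46, 25, 10 and 17 in GFP+ replicates 1 to 4. It was not called (DESeq2 adjusted p = 0.0734), but it was called without GFP- replicate 4 (adjusted p = 0.0284). Slc48a1, which moves heme out of lysosomes, fell by 0.86 ± 0.27 on the log2 scale (DESeq2 adjusted p = 0.0207), and its call was lost without GFP- replicate 1 or 4 or GFP+ replicate 2 or 3, at adjusted p from 0.0575 to 0.175, and by edgeR (adjusted p = 0.101).

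The genes of the iron regulatory protein system were not called. Aco1, the cytosolic aconitase that becomes iron regulatory protein 1, had a log2 fold change of -0.07 (DESeq2 adjusted p = 0.926) and Ireb2, iron regulatory protein 2, of 0.19 (adjusted p = 0.647). Fbxl5, the iron-sensing ubiquitin ligase subunit that removes Ireb2, was at 350.0, 549.7, 417.5 and 436.5 in GFP- and at 848.5, 588.7, 615.4 and 596.8 in GFP+ replicates 1 to 4. Its groups did not overlap, with a log2 fold change of 0.58 ± 0.23 that was not called (DESeq2 adjusted p = 0.0851) but was called without GFP- replicate 2 (adjusted p = 0.0472). Ncoa4, the receptor that delivers ferritin to autophagosomes, had a log2 fold change of 0.74 ± 0.30 (DESeq2 adjusted p = 0.115). It was called without GFP+ replicate 1 (adjusted p = 0.0125), the library that lay among the GFP- values.

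Of the 16 tested genes of mitochondrial iron, heme and iron-sulfur synthesis, none was called higher and 1 lower. Over all tested genes, 4.66% were called higher and 4.76% lower. The gene called lower was Glrx5, a glutaredoxin that passes on iron-sulfur clusters, which fell by 0.88 ± 0.31 on the log2 scale (DESeq2 adjusted p = 0.0455). Its call was lost without GFP- replicate 1, 2 or 4 or GFP+ replicate 1, 3 or 4 (adjusted p from 0.0904 to 0.19). Glrx5 was also not called by edgeR (adjusted p = 0.178), or by DESeq2 with TMM factors, a mean raw count of at least 10, no independent filtering or a replicate block (adjusted p from 0.0521 to 0.109). Of 7 tested genes of export and the hepcidin axis, App was called higher (log2 0.43 ± 0.14, DESeq2 adjusted p = 0.0213). App encodes the amyloid precursor protein, which has been linked to ferroportin at the cell surface, and its call was lost without GFP- replicate 1, 2 or 4 or GFP+ replicate 2, 3 or 4 (adjusted p from 0.0695 to 0.105) and by edgeR (adjusted p = 0.0943). None of the 4 tested genes of ferritin handling and iron chaperones was called.

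Of 6 transcriptional regulators of iron genes, 1 was called higher and none lower, beside 4.66% and 4.76% over all tested genes. Epas1, which encodes HIF-2α, a hypoxia-inducible factor with iron transport genes among its targets, was at 352.7, 282.4, 428.5 and 319.4 in GFP- and at 788.8, 998.3, 726.0 and 1729 in GFP+ replicates 1 to 4. All GFP+ libraries were above all GFP- libraries, with replicate 4 the highest. In log2 terms the difference was 1.64 ± 0.30 (DESeq2 adjusted p = 4.62e-06).

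**Figure D5:**
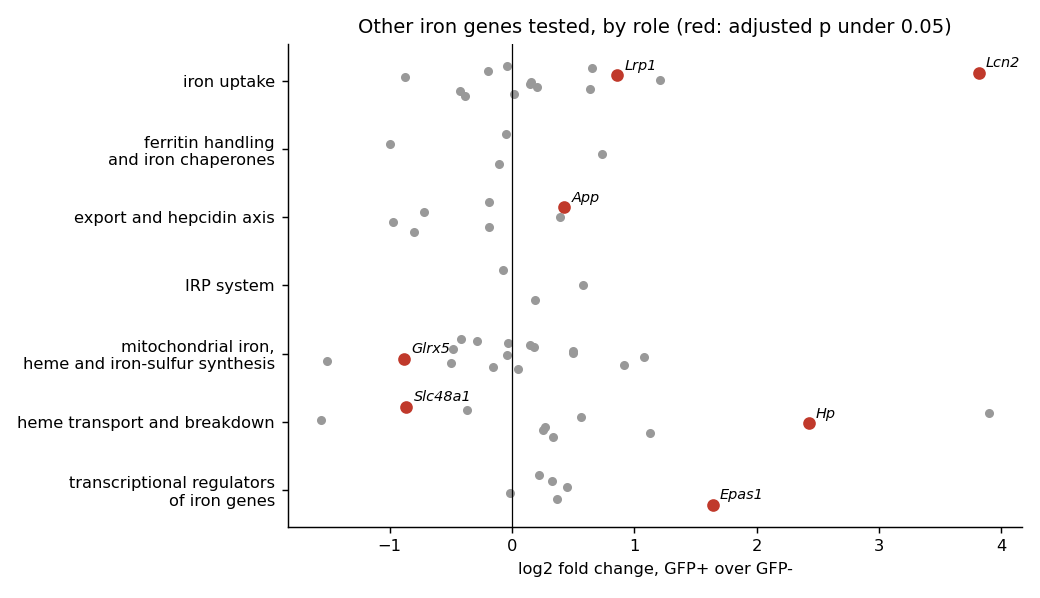
Log2 fold change, GFP+ over GFP- (x axis), of the 60 further iron genes with an adjusted p, in rows by role (vertical scatter inside a row has no meaning). Red points with names are the 7 genes with a DESeq2 adjusted p under 0.05, and grey points are the 53 not called.

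Over the whole genome, 18 tested genes held a 5′ UTR match to the iron-responsive element, of which 1 was called higher (Fth1) and 3 lower. Of the 80 tested genes with a 3′ UTR match, 5 were called higher and 4 lower, Tfrc among the latter. Beside 4.66% and 4.76% over all tested genes these are counts only. Among the 10 iron genes, Heph, Cp and Steap4, with the largest positive fold changes, were without a match, and the 4 genes with a match were 1 higher, 1 lower and 2 not called.

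Macrophages, which recycle iron and express Hmox1, Slc40a1 and Cd163, should be removed with CD45+ cells by the sort, and their markers were checked. None of 14 macrophage markers was called, and their share of reads was 0.0350% ± 0.0283 in GFP- and 0.0269% ± 0.0202 in GFP+ libraries (2-sided exact permutation p = 0.571). It was highest in GFP- replicate 3 (0.0765%) and GFP+ replicate 2 (0.0553%). The part of macrophage transcripts in the iron gene values was not tested. The shares of iron-recycling macrophage markers (exact permutation p = 0.8), erythroid markers (exact permutation p = 0.8), endothelial markers (exact permutation p = 0.6) and hepatocyte markers (exact permutation p = 0.171) were each at or below 0.0315% of reads in every library, and the design does not reach a p under 0.0286. Of 8 tested endothelial markers, Vwf was called lower (log2 -3.30, DESeq2 adjusted p = 3.77e-05) and none higher, beside 4.76% and 4.66% over all tested genes. Without GFP- replicate 3, and without GFP+ replicate 4, 1 endothelial marker was called higher each time. These were Pecam1 and Kdr, with lowest DESeq2 adjusted p of 0.00439 and 0.000774 when 1 library was left out. The hepatocyte markers took at most 0.000152% of reads in any library.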

How the data were processed

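RNA from FACS-sorted stromal cells of MO5 tumors had been made into 8 stranded total RNA libraries (SMARTer Pico kit) and run on an Illumina NextSeq. Per the submitters' processing notes and the study's methods, the authors trimmed reads with cutadapt 3.4, mapped them to GRCm38 with STAR 2.7.3a and counted them per Ensembl 92 gene, by strand, with featureCounts 2.0.1. They deposited 1 table with whole-number raw counts for each gene in each library. Its normalised score per gene and library, deposited by the authors, is the raw count divided by the DESeq2 size factor and rounded, and was used only as a check (largest difference 0.5). Its columns of the authors' own comparison (fold changes and p-values) were not used. Per-sample columns left unused: 0.

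The 29043 genes with a count were fitted with DESeq2 1.42.0 in R 4.3.3 (group as the only term, default size factors and dispersions, 2-sided Wald test, independent filtering), with Benjamini-Hochberg adjustment over 15283 genes and calls at adjusted p under 0.05. DESeq2 was the main test because the study used it, and edgeR 4.0.16 was an alternative. The code was tested on simulated data. Other settings were DESeq2 with TMM factors, a mean raw count of at least 10, no independent filtering, a replicate block and each library left out. Marker shares are percent of raw counts, compared by exact permutation tests. Gene models came from GENCODE M21. The 10 genes, the wider list, the marker lists and the rule for naming genes were chosen with earlier results of these data known. Genes named are the 10, called genes of the wider list with Aco1, Ireb2, Fbxl5 and Ncoa4, the 5 genes most like Heph, and checks of the sort. Hpx, Birc5, Gpr143, Oca2, Trpm1, Col3a1, Pdpn, Vwf, Pecam1 and Kdr were named after their values were seen. Strand-specific counting limits reads from genes on the opposite strand. No replicates were closer than independent libraries. Intervals cover counting error or the spread between libraries only.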

Additional observations from a re-analysis of the deposited data

Results flagged for a closer look

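Among 21 named iron genes in 2 groups of 4 libraries (42 sets), the gap between the extreme library and its neighbour, on the log2(normalised count + 1) scale, passed the 95% critical value of Dixon's test, as a share of the range, in 4 sets. Chance gives about 1 in 20. Ftl1 was lowest in GFP+ replicate 2, at 2218 normalised counts (0.83 of the range). Ireb2 was also lowest in GFP+ replicate 2, at 660.2 (0.897). Fbxl5 was highest in GFP+ replicate 1, at 848.5 (0.879). Lcn2 was at 0 in GFP- replicate 1 (0.88), where a count of 0 allows up to 4.07 normalised counts.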

How the results depend on the processing

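The 4 higher and 1 lower calls among the 10 genes were the same under all 13 alternatives, edgeR included (adjusted p from 5.89e-05 for Heph to 0.0319 for Fth1). edgeR called 732 of all genes in place of 1439, and 3 higher and 0 lower in the wider list (of 71). The lower count there was 1 with TMM factors, with a mean raw count of at least 10, without independent filtering and with the replicate block. Without 1 library the lower count ran from 0 to 2, and the higher count from 3 to 5. The higher count was 6 with TMM factors and with the replicate block. It was 5 with a mean raw count of at least 10 and 4 without independent filtering. Between groups, libraries with the same replicate number correlated at 0.0503, -0.158, -0.122 and 0.262. So few values cannot show whether the samples were paired, and the main fit left pairing out. The replicate block left the 10 genes' counts at 4 and 1. Among the uncalled iron genes named in the text, values that changed sign were Slc40a1 (-0.038 with TMM factors, -0.49 to 1.07 without 1 library), Ftl1 (-0.13 without GFP- replicate 3, up to 0.28 without others) and Aco1 (0.016 and 0.093 without GFP- or GFP+ replicate 1, and down to -0.19). Without 1 library, the GFP+ minus GFP- difference in share ran over 1.26 to 2.13 for fibroblast, -0.54 to -0.352 for melanocyte, -0.0176 to 0.00576 for macrophage, -0.000655 to 0.000734 for iron-recycling macrophage, -4.53e-05 to 0.000362 for erythroid, -0.00046 to 0.00423 for endothelial and -0.0258 to -0.0114 percentage points for cell-cycle markers. The fibroblast and melanocyte p was then 0.0571 without a GFP+ library. The cell-cycle p was 0.0286 without GFP- replicate 3 and 0.457 without GFP- replicate 1 or 2. The cause of these changes was not tested. Counts were low for Slc40a1 in every library (at most 117 reads), and for Heph in GFP- replicate 3 (10 reads).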
